A study of Rattus norvegicus with 6 samples.

Results

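The genes Gabra2, Gabra4, Gabra5, Gabrb1, Gabrb2, Gabrg1, Gabrg3 and Gabrd encode GABA-A receptor subunits and were followed through single nuclei of the rat nucleus accumbens. They were picked by symbol, with earlier results of these data known, and all 8 were found among the 25629 genes of the files. GABA-A receptors are chloride channels opened by GABA, the main inhibitory transmitter, and each channel is assembled from several subunits. Alpha and beta subunits form the GABA site, and gamma subunits contribute to the benzodiazepine site in many receptors. The delta subunit pairs with alpha4 in receptors outside synapses that sense ambient GABA and neurosteroids. In the accumbens most neurons are spiny projection neurons, which both release and receive GABA.

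In all, 6 single-nucleus libraries were made from Sprague-Dawley rats aged 90 to 120 postnatal days. All of the rats had self-administered heroin, for 7 days at 1 response per infusion (FR1), 4 days at 3 responses (FR3), a progressive ratio test on day 12 and FR3 again on days 13 and 14. No group here was free of heroin. After the last session 3 libraries came from rats injected with saline (replicates 1 to 3) and 3 from rats injected with naloxone, an opioid receptor antagonist that precipitates withdrawal (replicates 4 to 6), with tissue taken 1 h later. Each library pooled tissue of male and female rats (12 rats in the series, 6 of each sex). The library is therefore the replicate, sex was not separated, and p-values measure the spread between pools.

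The files held 64260 barcodes where the labels count 44592 nuclei, and 58960 nuclei (7647 to 13676 per library) were used here after filters and the removal of 2649 called doublets. Library totals ran from 55739350 to 76272798 unique molecular identifiers (UMIs), and 462 of 63796 distinct barcodes occurred in 2 libraries and 1 in 3 or more. Clusters built without any GABA gene were named from marker genes, which gave 13 classes with 37353 nuclei: Drd1-like (4003 nuclei), Drd2-like (5131) and eccentric-like (2791) spiny neurons, Chst9-like (2568) and Drd3 island-like (1987) neurons, cholinergic-like (275), somatostatin-like (470) and Pvalb-like (926) interneurons, and, among glia, oligodendrocyte precursor-like (2261), committed precursor-like (266), oligodendrocyte-like (10469), microglia-like (1538) and astrocyte-like (4668) nuclei. General spiny markers, by the second lowest of 5 as a percent of the main spiny level, were at 15.3% in Chst9-like and 27.1% in Drd3 island-like nuclei. Somatostatin-like (21.4%) and Pvalb-like nuclei (11.1%) were near these values, and Drd1-like (77.2%) and eccentric-like nuclei (78.4%) were far above them. This figure reflects the low end of the 5 markers only. Rgs9 by itself was at 846 CPM (defined below) in Drd3 island-like nuclei, near the Drd1-like (889) and eccentric-like (731) levels. It was at 294 in Chst9-like, 190 in somatostatin-like and 74.7 in Pvalb-like nuclei. The Drd3 island-like class is therefore not placed with the interneurons. It and the Chst9-like class are called by their markers only. The Pvalb-like name rests on Pthlh, Kit, Kcnc2 and Eya1, and Pvalb itself was not among the markers raised in that class. All class names are rebuilt and may differ from the study's, and the markers Tac1, Chat and Slc18a3 were not analysed here. A further 9 clusters (12253 nuclei) are called by a leading gene, and 7634 nuclei of mixed clusters and 1720 of other unnamed clusters entered only the sums over all nuclei. A level is the gene's share of the class's UMIs in a library, scaled to 1000000 UMIs (CPM), and is given as mean ± SD over the 6 libraries unless a group is named, and levels are compared within a gene, not between genes, since they are not per length.

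Of the members, 6 lie next to another member: by RefSeq order (GRCr8) Gabrb1 neighbours Gabra4 and Gabra2 neighbours Gabrg1 on chromosome 14, and Gabrg3 neighbours Gabra5 on chromosome 1. Gabrb2 (chromosome 10) and Gabrd (chromosome 5) have no other member beside them. RefSeq promoters, 300 bases around the gene start, were found for 7 of the 8 members. The promoters of 4 are printed because these genes part ways in the classes below: Gabrg1 and Gabrb1 were highest in astrocyte-like nuclei, and Gabra4 and Gabrd in spiny neurons. Capitals mark each GC box (GGGCGG, or CCGCCC on the other strand) and each CCAAT box (CCAAT, or ATTGG on the other strand).
Gabrg1, chr14:37750042-37750341 (+): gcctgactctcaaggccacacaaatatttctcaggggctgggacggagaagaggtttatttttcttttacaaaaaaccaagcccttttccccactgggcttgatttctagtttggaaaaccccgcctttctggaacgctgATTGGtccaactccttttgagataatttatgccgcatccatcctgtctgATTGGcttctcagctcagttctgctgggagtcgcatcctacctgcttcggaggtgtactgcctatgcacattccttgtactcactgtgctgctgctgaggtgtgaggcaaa
Gabrb1, chr14:36902844-36903143 (-): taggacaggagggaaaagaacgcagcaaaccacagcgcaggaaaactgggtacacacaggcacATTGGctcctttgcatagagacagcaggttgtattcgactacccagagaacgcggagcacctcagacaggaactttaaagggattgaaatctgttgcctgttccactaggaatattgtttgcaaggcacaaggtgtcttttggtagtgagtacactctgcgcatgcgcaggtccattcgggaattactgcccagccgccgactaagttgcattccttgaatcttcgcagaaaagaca
Gabra4, chr14:36944497-36944796 (+): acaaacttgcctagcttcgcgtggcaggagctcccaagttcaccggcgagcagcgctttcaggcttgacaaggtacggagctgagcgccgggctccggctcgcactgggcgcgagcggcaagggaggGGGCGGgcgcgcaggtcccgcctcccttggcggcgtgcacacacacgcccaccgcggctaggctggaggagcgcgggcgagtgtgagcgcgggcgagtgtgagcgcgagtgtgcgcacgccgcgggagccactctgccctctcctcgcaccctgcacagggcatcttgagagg
Gabrd, chr5:171252660-171252959 (-): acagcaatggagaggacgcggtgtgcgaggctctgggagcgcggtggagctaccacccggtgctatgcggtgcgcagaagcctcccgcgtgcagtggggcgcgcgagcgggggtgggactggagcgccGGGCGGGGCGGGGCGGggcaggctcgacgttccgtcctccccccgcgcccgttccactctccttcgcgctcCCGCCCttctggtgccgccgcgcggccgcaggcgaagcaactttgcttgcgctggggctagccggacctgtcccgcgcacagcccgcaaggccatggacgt
Both promoters of the astrocyte-high genes were near the median GC content of the 33469 promoters in the table, 51.7%, with 48.7% for Gabrg1 and 49.3% for Gabrb1, and they held CCAAT boxes (2 and 1) and no GC box. The Gabra4 promoter had a GC content of 70.7% and 1 GC box, and the Gabrd promoter 73.7% and 4 GC boxes, of which 3 follow each other and share a base with the next. Of the 3 not printed, Gabra5 (76.3%, 1 GC box) and Gabrg3 (76.7%, 2 GC boxes) were also GC-rich, and Gabrb2 (44.0%) held neither motif. A GC box was found in 33.1% of all promoters in the table and a CCAAT box in 37.5%. TATAAA (14.2% of all promoters) and TGACG (21.2%), on both strands, were not found in these 7 windows. The matches describe the letters of these windows only.

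The alpha subunits differed in the named class where they were highest. Gabra2, an alpha subunit of synaptic receptors, was at 521, 577 and 660 CPM in the saline and 570, 575 and 606 in the naloxone libraries of the somatostatin-like class, a mean of 585 ± 45.7 (n = 6). Drd2-like nuclei followed at 517 ± 47.6, below it in 5 of 6 libraries and so within the spread, and Drd3 island-like (432 ± 18.9) and Drd1-like nuclei (416 ± 35.1) came next and did not differ beyond the spread, meaning that their order did not hold in 6 of 6 libraries. Astrocyte-like nuclei held 339 ± 41.9, within the range of the eccentric-like, Pvalb-like and Chst9-like neurons (293 to 356), whereas oligodendrocyte-like nuclei held 39.5 ± 10.2.

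Gabra4, the usual partner of the delta subunit in striatal receptors outside synapses, was highest in Drd2-like nuclei. Its level there was 601, 559 and 575 in saline and 523, 522 and 522 in naloxone libraries (550 ± 33.6, n = 6). Each step down the next places, Drd1-like (455 ± 41.5), eccentric-like (422 ± 26.1), Chst9-like (315 ± 19.6) and Drd3 island-like (253 ± 5.80), held in 6 of 6 libraries. Pvalb-like nuclei (249 ± 43.9) did not differ beyond the spread from the Drd3 island-like class. Somatostatin-like (150 ± 20.1) and cholinergic-like nuclei (123 ± 22.2) lay at the astrocyte-like level of 131 ± 23.2.

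Gabra5, an alpha subunit found mostly outside synapses, was highest in Chst9-like nuclei at 38.2, 44.2 and 44.4 in saline and 55.0, 55.4 and 54.4 in naloxone libraries (48.6 ± 7.29, n = 6). With called doublets kept, with clustering at resolution 0.5 and with nuclei gated singly, Drd1-like nuclei were highest instead. Drd1-like (42.1 ± 5.06) and Drd2-like nuclei (39.0 ± 4.68) did not differ beyond the spread, and eccentric-like nuclei held 24.3 ± 3.92. From the Pvalb-like class (13.2 ± 3.52) down to the precursors (2.64 ± 2.38) no neighbours differed in all 6 libraries. The Igf1-led cluster reached 96.1 ± 24.0. Gad1 and Gad2 summed to 36.8 CPM in that cluster, against 582 in Drd1-like nuclei, and the glutamatergic marker Slc17a6 was at 155 CPM. A Gabra5 UMI was seen in 28.9% of Drd1-like and 0.774% of oligodendrocyte-like nuclei (median UMIs 9445 and 1573), and after thinning every nucleus to 1000 UMIs in 4.0% and 0.441%.

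Of the beta subunits, Gabrb1 was highest in astrocytes but also at 967 CPM or more in every named neuron class, and Gabrb2 was low in astrocytes. Gabrb1 was at 3790, 3775 and 3687 in saline and 4032, 3521 and 4179 in naloxone libraries of the astrocyte-like class (3831 ± 238, n = 6), above every neuron class in 6 of 6 libraries. Cholinergic-like nuclei came second (2614 ± 227), then somatostatin-like (1820 ± 129) and Drd3 island-like nuclei (1757 ± 104), which did not differ beyond the spread, then Drd1-like (1387 ± 90.0) and Drd2-like nuclei (1379 ± 86.3), which did not either. Oligodendrocyte precursor-like nuclei held 346 ± 34.7 and oligodendrocyte-like nuclei 40.3 ± 9.25.

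Gabrb2, a beta subunit common in synaptic receptors, was at 483, 559 and 585 in saline and 736, 371 and 625 in naloxone libraries of the cholinergic-like class (560 ± 124, n = 6), the widest spread of any of its neuron classes. The Chst9-like class held 539 ± 8.18, not beyond the spread from it, followed by Drd1-like (396 ± 14.8) and Drd2-like nuclei (327 ± 13.3). In astrocyte-like nuclei the level was 28.0 ± 4.24. Outside the named classes the Sema3c-led cluster held 1485 ± 113.

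**Figure D1:**
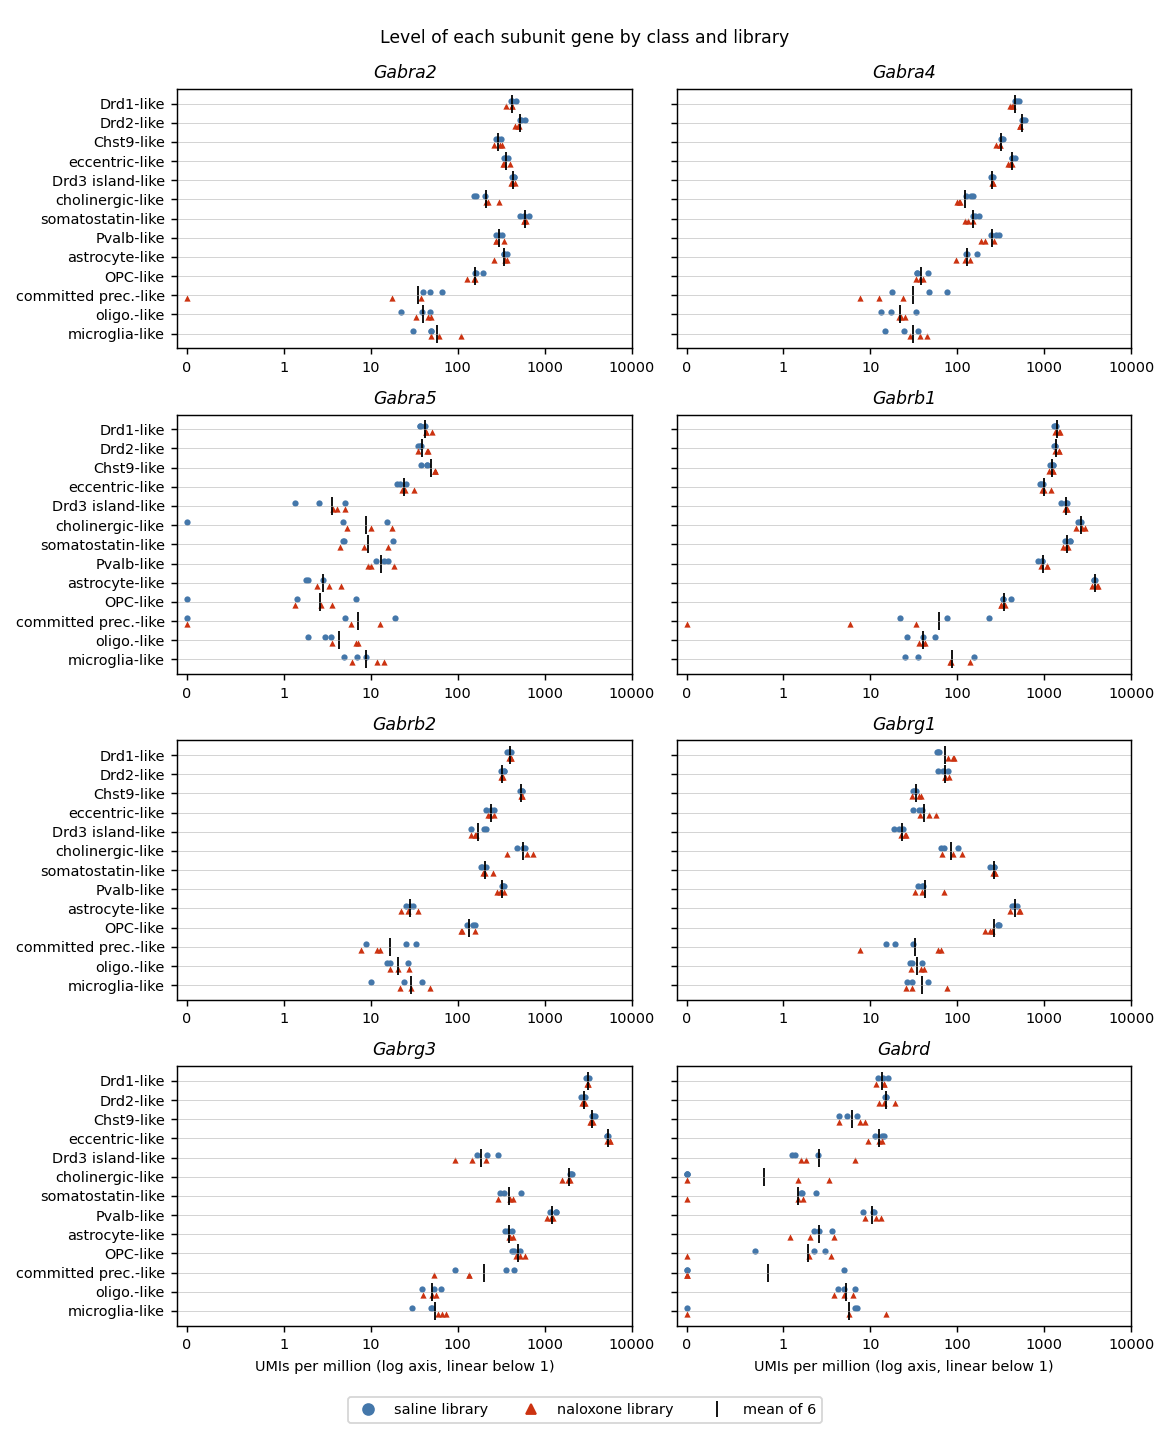
Level of each of the 8 subunit genes in CPM (horizontal axis, logarithmic and linear below 1) in the 13 named classes, with 1 circle per saline library, 1 triangle per naloxone library and a bar at the mean of the 6. Gabrb1 and Gabrg1 are highest in astrocyte-like nuclei (3831 and 467), Gabrg3 in eccentric-like (5344), Gabra4 in Drd2-like (550).

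The gamma subunits had their highest levels in different lineages. Gabrg1 was at 480, 429 and 452 in saline and 526, 405 and 510 in naloxone libraries of the astrocyte-like class (467 ± 46.9, n = 6). Oligodendrocyte precursor-like (265 ± 36.7) and somatostatin-like nuclei (261 ± 14.4) were level with each other, above cholinergic-like (84.6 ± 20), Drd1-like (73.1 ± 15) and Drd2-like nuclei (72.2 ± 7.40), and Drd3 island-like nuclei were lowest at 23.0 ± 2.60. A Gabrg1 UMI was seen in 60.7% of astrocyte-like and 5.48% of oligodendrocyte-like nuclei (median UMIs 2445 and 1573), and in 34.9% and 3.19% after thinning to 1000 UMIs. Somatostatin-like nuclei were not the only neurons at their level. After thinning, Gabrg1 was seen in 24.5% of Dcdc1-ps1-led, 21.4% of Slc17a8-led and 19.4% of Ano2-led nuclei, against 21.7% of somatostatin-like nuclei. The share was lower in the other clusters called by a leading gene.

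Gabrg3 was highest in eccentric-like neurons, at 5252, 5299 and 5172 in saline and 5641, 5150 and 5551 in naloxone libraries (5344 ± 204, n = 6). Chst9-like (3516 ± 168), Drd1-like (3101 ± 99.1), Drd2-like (2790 ± 124), cholinergic-like (1902 ± 171) and Pvalb-like nuclei (1220 ± 116) followed, each step in 6 of 6 libraries. The Drd3 island-like class held 187 ± 68.1, below the astrocyte-like level of 391 ± 29.5.

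Gabrd, the delta subunit, was at 14.7, 15.3 and 15.3 in saline and 19.2, 14.5 and 12.6 in naloxone libraries of the Drd2-like class (15.3 ± 2.15, n = 6). Drd1-like (13.8 ± 1.52), eccentric-like (12.6 ± 1.84) and Pvalb-like nuclei (10.6 ± 1.81) followed in steps that did not hold in all 6 libraries, and Chst9-like nuclei held less (6.26 ± 1.77). Only 3 Gabrd UMIs were counted in cholinergic-like nuclei, all in naloxone libraries, and 5 in somatostatin-like nuclei. A Gabrd UMI was seen in 12.4% of Drd2-like and 0.907% of oligodendrocyte-like nuclei (1.47% and 0.563% after thinning), so the low glial values of this gene are near the level of single UMIs, and the part of free RNA in them was not tested.

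As a share of the UMIs of all 19 GABA-A subunit genes, which compares the same genes across classes, the members together made up 60.7% (Drd3 island-like) to 97.1% (astrocyte-like). Gabrb1 alone was 71.6 ± 0.74% of the subunit UMIs in astrocyte-like nuclei (n = 6) and 40.2% in somatostatin-like, 38.3% in cholinergic-like and 37.7% in Drd3 island-like nuclei, against 17.4% in Drd1-like and 17.8% in Drd2-like nuclei. Gabrg3 was 57.1 ± 0.52% in eccentric-like (n = 6), 44.0% in Chst9-like and 38.9% in Drd1-like nuclei, and 4.02% in the Drd3 island-like class. Gabra2 had its largest share in somatostatin-like nuclei (13.0%) and Gabrg1 in the precursors (12.8%), followed by oligodendrocyte-like (9.73%) and astrocyte-like nuclei (8.72%). These shares depend on transcript length and on nuclear, partly unspliced RNA, so they do not give the subunit ratio of the protein.

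**Figure D2:**
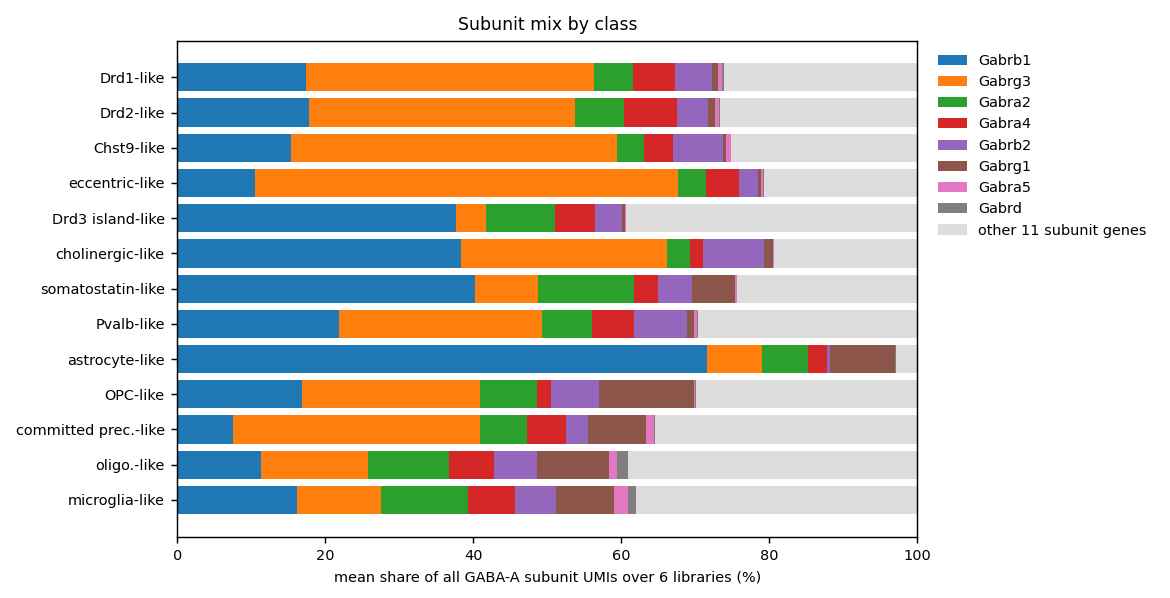
Share of each member in the UMIs of all 19 GABA-A subunit genes (horizontal axis, percent, mean of 6 libraries) in the 13 named classes, with the 11 other subunit genes in grey. Gabrb1 fills 71.6% in astrocyte-like nuclei, Gabrg3 57.1% in eccentric-like nuclei and 4.02% in the Drd3 island-like class.

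Across the 13 class means the members with the most similar profiles were Gabra2 and Gabrb1 (Pearson r = 0.94 of log2 levels) and Gabra2 and Gabra4 (r = 0.88), and the least similar were Gabra5 and Gabrg1 (r = -0.28) and Gabrg1 and Gabrd (r = -0.22). Among 11706 genes outside the GABA list, the profile closest to Gabrg1 was that of Tspan7 (r = 0.93), followed by Slc16a12 (r = 0.88). The closest to Gabrd was that of the histamine receptor gene Hrh3 (r = 0.90), then the cholecystokinin receptor gene Cckbr (r = 0.90). The 2 closest were Arhgef17 (r = 0.98) and Sgsm2 (r = 0.97) for Gabra2, Chn1 (r = 0.98) and Ppargc1b (r = 0.97) for Gabra4. They were Hydin and Zbbx (both r = 0.92) for Gabra5, Sybu (r = 0.98) and Arhgef17 (r = 0.96) for Gabrb1, Rgs17 and Tenm2 (both r = 0.98) for Gabrb2, and Mbd5 (r = 0.92) and Slc2a13 (r = 0.90) for Gabrg3. These are descriptions over 13 points that share libraries, and class depth and the neuron to glia split move with them.

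The classes were then compared within libraries, with edgeR's quasi-likelihood test on summed UMIs and the library as a block. A gene was called at a Benjamini-Hochberg adjusted p under 0.05 over all tested genes and a log2 difference of at least 1. Between Drd1-like and Drd2-like neurons, the direct and indirect pathway types, 0 of 8 members were called, against 3.51% of all genes, by edgeR and also by DESeq2, although 5 (edgeR) and 4 (DESeq2) had an unadjusted p under 0.05. Gabra2 (log2 -0.32, SE 0.03, adjusted p = 1.09e-08) and Gabra4 (log2 -0.28, SE 0.03) were lower in the Drd1-like class, and Gabrb2 (log2 0.28, SE 0.03) and Gabrg3 (log2 0.15, SE 0.02) higher. The differences of Gabrb1 (log2 0.01, SE 0.02) and Gabrg1 (log2 0.01, SE 0.06) were within their errors.

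Chst9-like neurons, which carry the mu-opioid receptor gene Oprm1 among their markers, had less Gabrg1 (log2 -1.29, SE 0.07, adjusted p = 1.87e-13) and less Gabrd (log2 -1.30, SE 0.14, adjusted p = 4.91e-08) than Drd1-like neurons. Called were 2 of 8 members against 12.6% of all genes. Gabrg1 was at 31.8, 30.7 and 33.2 in the saline and 36.0, 30.4 and 37.9 in the naloxone libraries of the Chst9-like class, all below the Drd1-like values of 57.9 to 90.9. The Gabrg1 difference reversed to log2 0.32 (adjusted p = 0.00423; range over the alternatives 3.51e-70 to 0.00423) when nuclei needed 1000 detected genes and were clustered again, a setting in which the Drd1-like class held 1414 of its 4003 nuclei. The Gabrd difference lost the call at resolution 0.5 (log2 -0.45, adjusted p = 0.0103) and with nuclei gated singly (log2 -0.96); its adjusted p ran from 8.69e-18 to 0.0103 over the alternatives. Gabrg3 differed by log2 0.02 (SE 0.03) in the fit and by 0.18 in plain CPM, since the normalization factors shifted the members by 0.16 in this comparison. Likewise Gabra5 differed by log2 0.05 in the fit and by 0.21 in plain CPM. The median member was at log2 -0.50, against 0.033 over all genes.

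In eccentric-like against Drd1-like neurons 0 of 8 members were called by edgeR or DESeq2, against 7.09% of all genes, with 8 (edgeR) and 7 (DESeq2) at an unadjusted p under 0.05. Gabrg3 was higher (log2 0.69, SE 0.03, adjusted p = 1.54e-16), and the other 7 had negative values, with Gabrg1 (log2 -0.94, SE 0.06), Gabra5 (log2 -0.89, SE 0.08) and Gabrb2 (log2 -0.83, SE 0.04) the furthest, under the fold needed for a call. With called doublets kept 3 members passed it, among them Gabra5 (log2 -1.39) and Gabrg1 (log2 -1.74), and the Gabrg1 value was 0.01 with nuclei of at least 1000 genes clustered again.

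Among interneurons, set against the sum of Drd1-like and Drd2-like neurons, the somatostatin-like class differed in 6 of 8 members against 19.8% of all genes. Gabrg1 was higher (log2 1.63, SE 0.08, adjusted p = 4.01e-18). Lower were Gabrd (log2 -3.50, SE 0.39, from 5 UMIs), Gabrg3 (log2 -3.18, SE 0.09, adjusted p = 9.16e-25), Gabra5 (log2 -2.36, SE 0.22), Gabra4 (log2 -1.98, SE 0.08) and Gabrb2 (log2 -1.01, SE 0.07). The Gabrb2 value sits at the edge of the fold and is -0.79 in plain CPM, and it lost the call in 6 of 14 alternatives, with a value as near 0 as -0.38 for nuclei of at least 1000 genes. Among these were the fits without saline replicate 1 and saline replicate 2. Gabra2 (log2 0.10, SE 0.07) and Gabrb1 (log2 0.17, SE 0.06) were not called. The median member was at log2 -1.50, against -0.0062 over all genes.

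Cholinergic-like neurons differed in 4 of 8 members against 22.9% of all genes: Gabra4 (log2 -2.19, SE 0.09, adjusted p = 4.46e-14), Gabra5 (log2 -2.33, SE 0.25), Gabra2 (log2 -1.31, SE 0.12) and Gabrd were lower. With 3 Gabrd UMIs, the cholinergic-like level was 5.40% of the spiny level (exact 95% interval 1.11% to 15.8%, counting error only). Gabrb1 (log2 0.78, SE 0.08) and Gabrb2 (log2 0.48, SE 0.10) had positive values under the fold for a call. Pvalb-like neurons differed in 3 of 8 members against 21.5% of all genes, with lower Gabra5 (log2 -1.83, SE 0.13), Gabrg3 (log2 -1.48, SE 0.05, adjusted p = 3.08e-16) and Gabra4 (log2 -1.24, SE 0.07). The other 5 also had negative values, from -0.98 to -0.37. The median member was at log2 -1.04 in the cholinergic-like and -0.92 in the Pvalb-like comparison, against -0.027 and 0.017 over all genes.

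Astrocyte-like nuclei differed from the spiny sum in 7 of 8 members, against 40.9% of all genes. Gabrg1 (log2 2.31, SE 0.06, adjusted p = 1.04e-15) and Gabrb1 (log2 1.09, SE 0.06, adjusted p = 9.95e-12) were higher, the latter under the fold for a call with doublets kept (log2 0.98) and at resolution 0.5 (log2 0.92). Gabra5 (log2 -4.23, SE 0.14), Gabrb2 (log2 -4.08, SE 0.08), Gabrg3 (log2 -3.29, SE 0.07), Gabrd (log2 -2.88, SE 0.19) and Gabra4 (log2 -2.33, SE 0.08) were lower, and Gabra2 was at log2 -0.85. The normalization moved the members by 0.38 here, so plain CPM give larger positive and smaller negative differences, with no change of sign. The median member was at log2 -2.61, against 0.027 over all genes.

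Oligodendrocyte precursors, which receive GABA synapses from neurons, had more of 5 of the 6 members tested than oligodendrocyte-like nuclei, against 31.6% of all genes: Gabrg3 (log2 3.40, SE 0.09, adjusted p = 8.85e-19), Gabrb1 (log2 3.19, SE 0.10), Gabrg1 (log2 3.03, SE 0.10), Gabrb2 (log2 2.81, SE 0.12) and Gabra2 (log2 2.08, SE 0.12). Gabra4 was at log2 0.85 (SE 0.15), and Gabra5 and Gabrd did not pass the filter on low counts. Gabrg1 was at 294, 295 and 300 in saline and 250, 211 and 240 in naloxone libraries of the precursors, against 28.6 to 41.6 in oligodendrocyte-like nuclei.

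**Figure D3:**
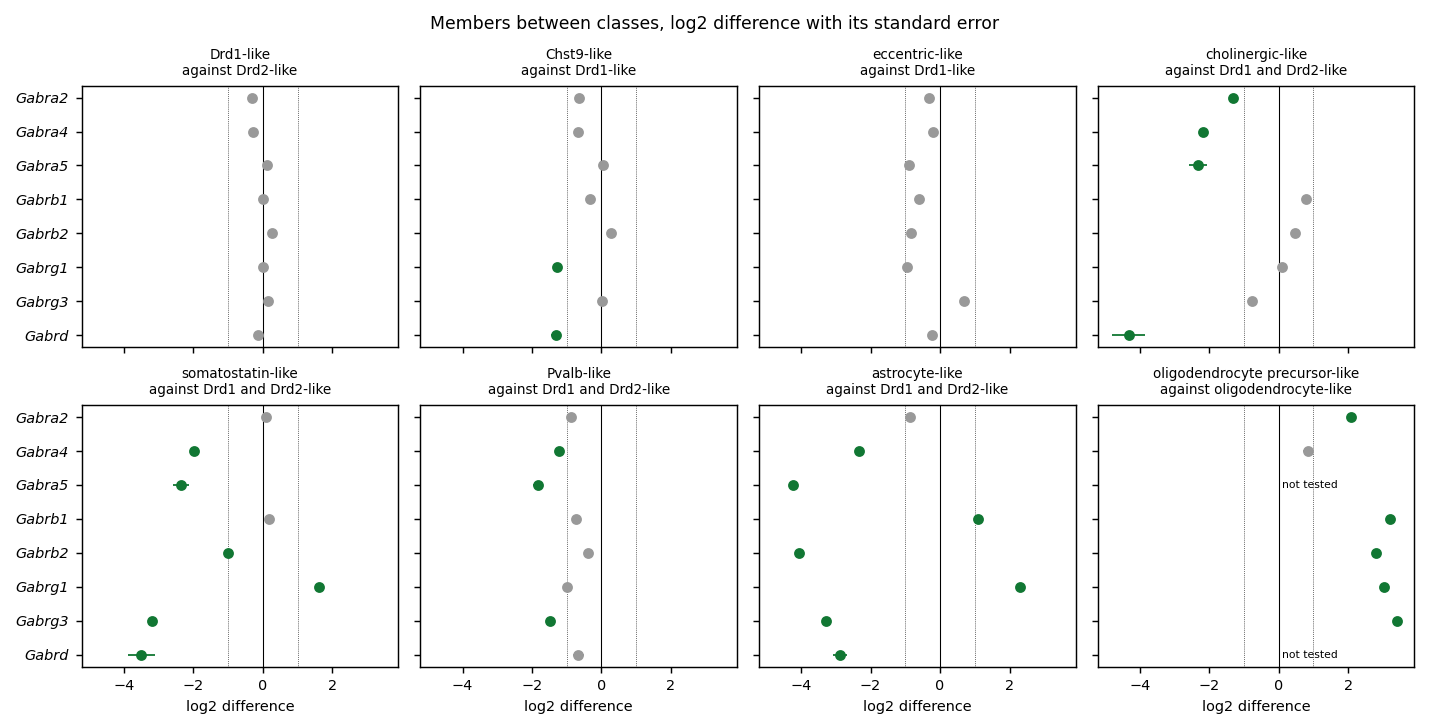
Log2 difference between classes (horizontal axis) for each member in the 8 class comparisons, with the standard error as a bar and dotted lines at 1 and -1; green points were called and grey points were not. Members scatter on both sides of 0 in the astrocyte-like comparison (2.31 for Gabrg1, -4.23 for Gabra5) and lie within 0.32 of 0 between Drd1-like and Drd2-like nuclei.

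The other 41 genes of GABA signalling give the setting. Of those tested, 4 were called higher and 13 lower of 31 in astrocyte-like against spiny nuclei, where 40.9% of all genes were called. In precursors against oligodendrocyte-like nuclei 12 were called higher and 4 lower of 30, against 31.6% of all genes. Against spiny nuclei the counts were 1 higher and 9 lower of 31 in cholinergic-like nuclei (22.9% of all genes). They were 3 and 4 of 31 in somatostatin-like (19.8%) and 5 and 2 of 32 in Pvalb-like nuclei (21.5%). Between the other pairs of neuron classes the counts were 0 higher and 1 lower of 32 (Drd1-like against Drd2-like, 3.51% of all genes). They were 3 and 1 of 32 (Chst9-like, 12.6%) and 2 and 1 of 31 (eccentric-like, 7.09%). These counts were not tested against the shares over all genes.

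Naloxone was then compared with saline in each class and over all nuclei, where fewer nuclei of a type and less RNA per nucleus cannot be told apart. Gabrg1 was called higher with naloxone in Drd1-like neurons, but the call was lost in 6 of 15 alternatives, as given below. Its level there was 61.6, 60.5 and 57.9 in the saline libraries (60.0 ± 1.89, n = 3) and 89.5, 78.3 and 90.9 in the naloxone libraries (86.2 ± 6.86, n = 3). The groups did not overlap, as for 17.2% of all genes in this class. The log2 change was 0.52 (SE 0.09, adjusted p = 0.0311, edgeR), in a class where 0.376% of all genes were called. As a share of the 19 subunit genes' UMIs in these nuclei Gabrg1 went from 0.745 to 0.771% in the saline libraries to 1.03 to 1.10% in the naloxone libraries.

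This was 1 call among 84 tests of a member in a class (of 104 possible), 14 of which had an unadjusted p under 0.05. Over all nuclei 0 of 8 members were called by edgeR (3 at an unadjusted p under 0.05), against 0.0404% of all genes, and 1 by DESeq2, Gabra4, where DESeq2 called 2.43% of all genes. In the other 12 classes 0 members were called by either tool. These gave an unadjusted p under 0.05 in 11 tests by edgeR and 6 by DESeq2. Few genes of any kind were called there: 0% of all genes in cholinergic-like and Drd3 island-like, 0.0138% in somatostatin-like, 0.0216% in Pvalb-like, 0.0555% in Chst9-like, 0.0790% in eccentric-like, 0.242% in microglia-like, 0.276% in precursor, 0.416% in Drd2-like, 0.513% in committed precursor-like, 0.932% in astrocyte-like and 1.00% in oligodendrocyte-like nuclei.

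The Drd1-like call was lost when most single libraries were left out, with log2 changes of 0.45 to 0.61. Without saline replicate 1, 2 or 3, each in turn, the adjusted p (edgeR) was 0.133, 0.172 and 0.167. Without naloxone replicate 4 or 6 it was 0.102 and 0.0707, and without naloxone replicate 5 it fell to 0.00289. DESeq2 gave an adjusted p of 0.0029. The value was 0.21 (adjusted p = 0.745) after clustering nuclei of at least 1000 genes again, and over all alternatives the adjusted p ran from 9.72e-05 to 0.745.

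That new clustering cut the class apart. A part of 1414 of the 4003 nuclei kept the Drd1-like name, with Gabrg1 at 22.9, 25.7 and 20.9 in saline and 34.6, 26.5 and 29.7 in naloxone libraries. A part of 2096 nuclei fell into an unnamed cluster, with 81.9, 76.8 and 75.6 in saline and 105, 86.3 and 99.6 in naloxone libraries. A further 486 nuclei, in other clusters, held 130, 129 and 151 in saline and 152, 224 and 200 in naloxone libraries. In each of the 3 parts, described after the split was seen, the naloxone libraries lay above the saline libraries. The parts come from the same nuclei and libraries as the call and are not separate evidence. Non-overlap over all genes was not counted in the parts, and it was 17.2% in the whole Drd1-like class. The low part made up 36.5%, 36.4% and 43.4% of the class in saline and 28.4%, 35.2% and 28.3% in naloxone libraries, and these further nuclei 7.56%, 9.89% and 13.8% in saline and 16.6%, 12.2% and 15.2% in naloxone libraries. The naloxone libraries thus held less of the part lowest in Gabrg1 in 3 of 3, while the shares of the highest part overlapped, and how much of the change the mix carries was not tested. With the same nuclei cut to those of at least 1000 genes and not clustered again, also chosen after seeing the data, the call held (log2 0.51, adjusted p = 0.0342).

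Astrocytes had the highest Gabrg1 level, and the summed level of 6 astrocyte markers in Drd1-like nuclei, all 6 with UMIs, was 566 to 612 in saline and 531 to 584 in naloxone libraries, overlapping. Of the 20 marker lists only the fibroblast list (0.497 to 0.620 in saline, 0.822 to 1.13 in naloxone) did not overlap, and its part in the result was not tested. Median UMIs per Drd1-like nucleus were 7516 to 12828 in saline and 8870 to 15885 in naloxone libraries.

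In Drd2-like neurons Gabrg1 was at 79.1, 60.4 and 69.0 in saline and 80.9, 71.9 and 71.9 in naloxone libraries (log2 0.13, SE 0.10, adjusted p = 0.634), with overlap. The difference between the naloxone changes of both classes was tested as a class-by-treatment term: log2 0.37 (SE 0.09, adjusted p = 0.0611). The term called 0 of 8 members by edgeR and by DESeq2 (1 at an unadjusted p under 0.05 in each), against 0.854% of all genes, and Gabrg1 passed it without saline replicate 2 (adjusted p = 0.0236) and in 3 other alternatives.

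Gabrg1 had a positive value in 11 of the 12 classes where it was tested, with log2 0.40 (SE 0.15) in eccentric-like and 0.12 (SE 0.11) in astrocyte-like nuclei, but only the Drd1-like one was called. In oligodendrocyte precursors every naloxone library lay below every saline library (log2 -0.34, SE 0.11, adjusted p = 0.301). The Ebf1-led, Plcz1-led and Slc17a8-led clusters, which have no class name, showed the same order as the Drd1-like class, without a test, and in the other 6 such clusters the groups overlapped: 113, 109 and 115 in saline against 150, 177 and 177 in naloxone libraries of the Ebf1-led cluster, 97.9, 102 and 94.1 against 123, 112 and 104 in the Plcz1-led cluster, and 252, 224 and 249 against 326, 275 and 279 in the Slc17a8-led cluster. Of all genes with at least 30 UMIs, 16.2%, 14.5% and 15.1% did not overlap in these clusters. The Plcz1-led cluster had 4 raised Drd1-like markers (Drd1, Pdyn, Isl1 and Chrm4) and the Ebf1-led cluster 2 (Ebf1 and Pdyn). Their general spiny markers were at 100% and 53.5% of the main spiny level. The Drd1-like class therefore holds only a part of the nuclei with such markers. Whether these 2 clusters are a cell type apart from it was not tested.

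**Figure D4:**
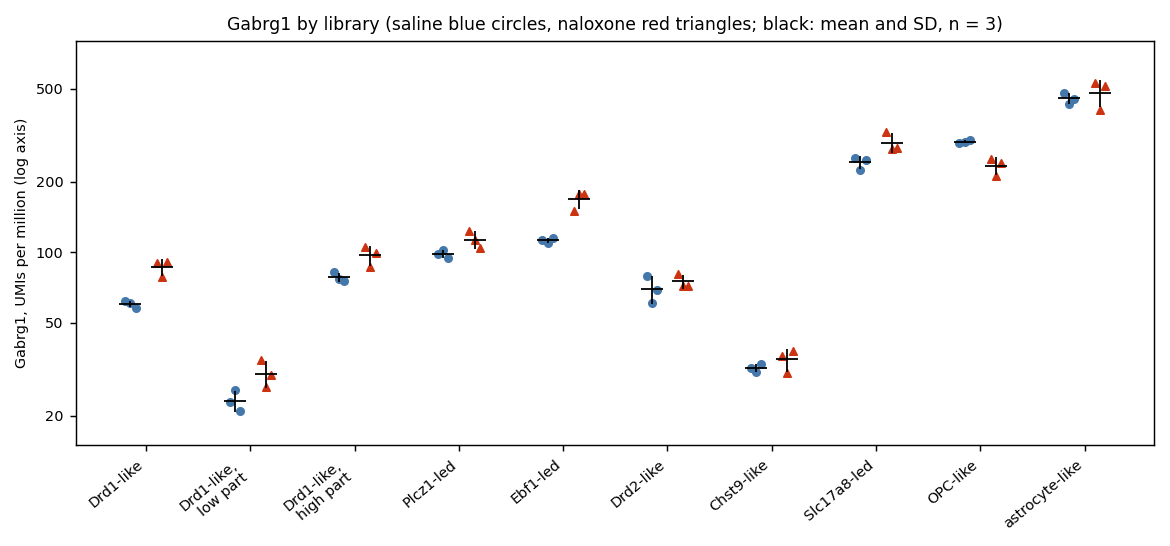
Gabrg1 in CPM (vertical axis, logarithmic) in each library of 8 classes or clusters and of the low and high part of the Drd1-like class as split by the second clustering, with saline as circles, naloxone as triangles and mean and SD (n = 3) in black. The Drd1-like naloxone libraries (78.3 to 90.9) lie above the saline libraries (57.9 to 61.6), and the precursor class shows the opposite order.

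No other member was called in a class. Gabra4 had negative values in 9 of 12 classes, and its naloxone libraries lay below the saline libraries in Drd1-like (519, 463 and 484 against 425, 409 and 432), Drd2-like (601, 559 and 575 against 523, 522 and 522), Chst9-like (335, 331 and 323 against 310, 281 and 308) and cholinergic-like nuclei (152, 145 and 127 against 99.2, 108 and 105). None of these passed the test, with log2 -0.22 (SE 0.08, adjusted p = 0.266) in the Drd1-like class. Over all nuclei Gabra4 was at 352, 334 and 321 in saline and 252, 300 and 278 in naloxone libraries (log2 -0.29, SE 0.08, adjusted p = 0.199), and DESeq2 called it (adjusted p = 0.0476; range over the alternatives 0.0476 to 0.563).

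Gabra5 went the other way. Its naloxone libraries lay above the saline libraries in Drd1-like (36.4, 36.8 and 42.3 against 43.4, 50.1 and 43.6), Chst9-like (38.2, 44.2 and 44.4 against 55.0, 55.4 and 54.4) and oligodendrocyte-like nuclei (1.91, 3.51 and 2.95 against 7.22, 6.84 and 3.54, from 83 UMIs). The log2 changes of 0.24 (SE 0.10), 0.38 (SE 0.12) and 1.03 (SE 0.37) had adjusted p-values of 0.340, 0.303 and 0.286, and over all nuclei the value was 0.23 (SE 0.07, adjusted p = 0.207).

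Gabra2 in Drd2-like nuclei (591, 524 and 540 in saline, 489, 450 and 506 in naloxone; log2 -0.17, SE 0.08, adjusted p = 0.397) and in precursors also separated downward without a call. In cholinergic-like nuclei it separated upward (153, 162 and 207 against 299, 222 and 211; log2 0.49, SE 0.18, adjusted p = 0.907). Gabrg3 in microglia-like nuclei separated upward (29.8, 49.1 and 50.8 against 72.8, 65.9 and 59.0; log2 0.53, SE 0.29, adjusted p = 0.681). Counted this way, 3 of 8 members had groups that did not overlap in Drd1-like nuclei (17.2% of all genes), 2 of 8 in Drd2-like (19.0%) and Chst9-like (14.9%), 2 of 6 in cholinergic-like (11.2%) and precursor nuclei (13.8%), 1 of 5 in microglia-like (13.5%), 1 of 8 in oligodendrocyte-like (18.9%) and 3 of 8 over all nuclei (21.8%). In eccentric-like (14.6%), Pvalb-like (13.6%), somatostatin-like (11.7%), Drd3 island-like (12.4%), astrocyte-like (17.8%) and committed precursor-like nuclei (15.9%) no tested member separated.

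None of the naloxone values of Gabrb1, Gabrb2, Gabrg3 and Gabrd passed the test. Gabrb1 ran from log2 -0.13 to 0.51 over 12 classes, Gabrb2 from -0.22 to 0.18 over 11 and Gabrd from -0.17 to 0.23 over 6. Gabrg3 ran from -1.39 to 0.53 over 13 classes, with its lowest value in committed precursor-like nuclei (354, 439 and 92.8 in saline, 136, 53.4 and 136 in naloxone libraries; SE 0.46, adjusted p = 0.247). In the Drd1-like class Gabrb1 was at 1362, 1316 and 1311 in saline and 1474, 1334 and 1524 in naloxone libraries (log2 0.11, SE 0.08, adjusted p = 0.611), with overlap, and Gabrg3 at 3022, 3242 and 2998 against 3154, 3026 and 3164 (log2 0.01, SE 0.07). The median over the 8 members was log2 0.025 in both Drd1-like and Drd2-like nuclei, against 0.0034 and 0.0029 over all genes.

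**Figure D5:**
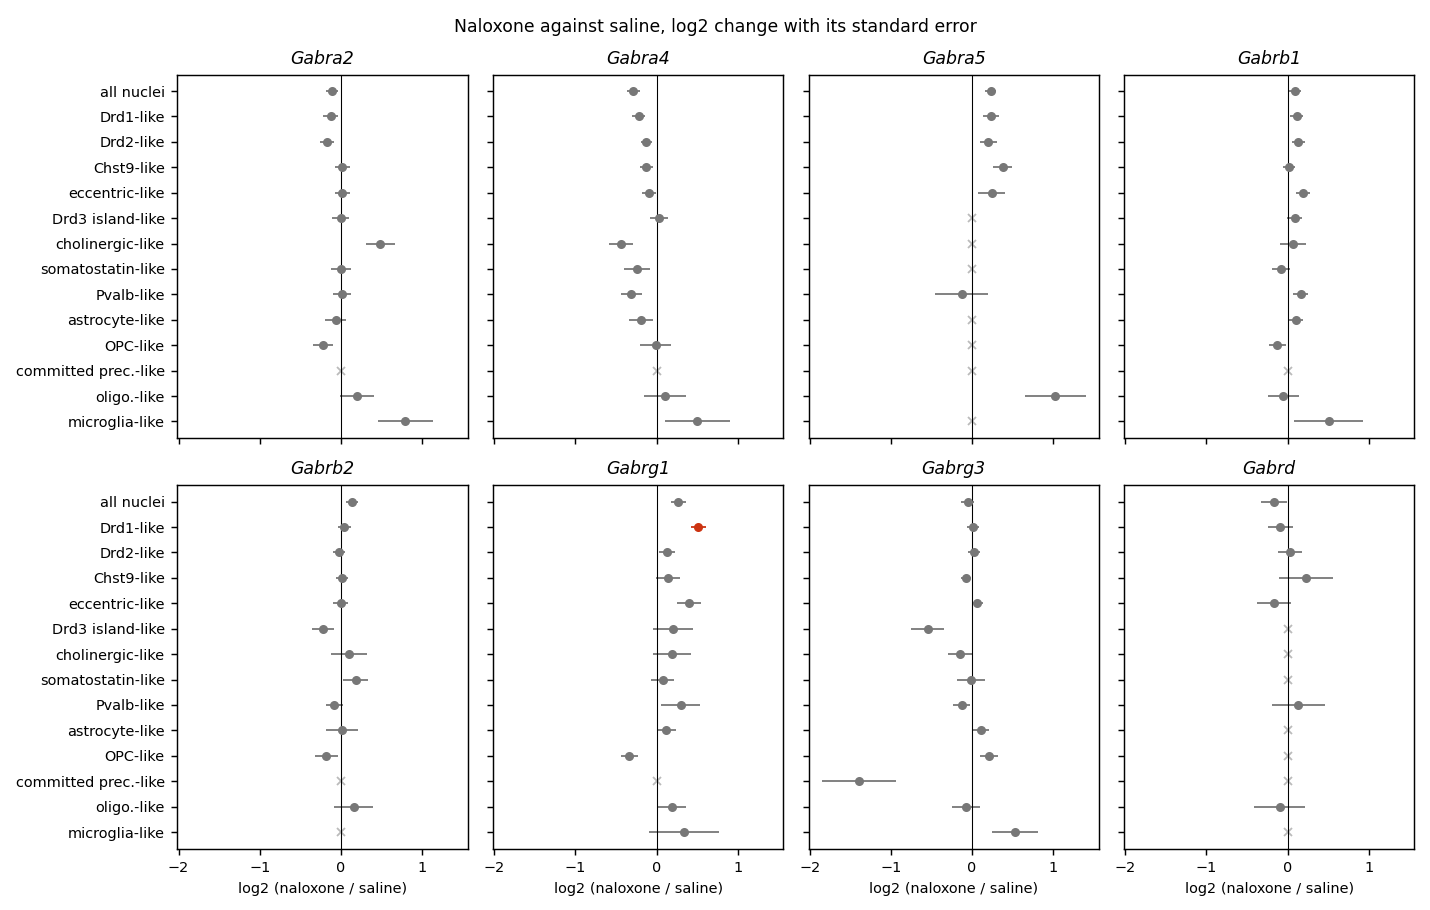
Log2 change of each member with naloxone (horizontal axis) over all nuclei and in the 13 classes, with the standard error as a bar; the red point was called, grey points were not, and crosses mark members not tested in a class. Gabrg1 in Drd1-like nuclei (0.52) is the only call.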

How the data were processed

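Nuclear RNA was sequenced with a 10x 3' kit and each library's filtered matrix of UMI counts, whole numbers that are not normalized, was deposited by the authors. Per the submitters' processing notes, Cell Ranger 9.0.1, the mRatBN7.2 build, R 4.4.0 and Seurat 5.2.1 were used; the role of each step is not given there. From these counts, nuclei under 500 genes or over 5% mitochondrial UMIs were dropped, doublets (4.30%) were called per library at an expectation of 0.4% per 1000 barcodes and removed, and nuclei were clustered with scanpy 1.11.5 (3000 variable genes, 40 principal components, 15 neighbours, Leiden resolution 1), leaving out 49 GABA genes. A cluster was named when at least 3 markers of a class were 1.5-fold above the rest and no other lineage's markers went against it. It also stayed unnamed when its leading genes held more markers of another class than of its own. The same held when its own markers were not among its most raised genes. By the first of these rules the Plcz1-led cluster, with 4 Drd1-like markers but Drd3 among its leading genes, stayed unnamed.

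UMIs were summed per library and class (at least 20 nuclei) and tested with edgeR 4.0.16 (quasi-likelihood, TMM factors, filter on low counts, R 4.3.3), with Benjamini-Hochberg adjustment over all tested genes. A naloxone call needed an adjusted p under 0.05, and a class call also a log2 difference of 1. A step between neighbouring levels counted as beyond the spread when it held in 6 of 6 libraries. Library totals are given in the report, and exact intervals cover counting error only. Counts were simulated with 200 changed genes, taken from genes at or above the median count of those tested. Of these, 71.5% were recovered at a log2 change of 0.5 in the Drd1-like class. In the cholinergic-like class 1.00% were recovered at 0.5 and 73.0% at 1. Recovery of genes with lower counts was not simulated.

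All 8 members were named in every class, with each other GABA gene called in a naloxone fit and, for each member, the 2 genes with the highest correlation over class means of log2(CPM + 1), among genes reaching 10 CPM. A result under this rule is not reported here. The members and lists were chosen with earlier results of these data known. Alternatives were other size factors, DESeq2 1.42.0, no filter, 1000 genes per nucleus, doublets kept, resolution 0.5, nuclei gated singly and leaving out each library.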

Additional observations from a re-analysis of the deposited data

Results flagged for a closer look

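The naloxone change of Plcl1, which encodes a protein of GABA-A receptor trafficking, differed between Drd1-like and Drd2-like neurons by log2 -0.40 (SE 0.06, adjusted p = 0.00037, edgeR's quasi-likelihood test of the class-by-treatment term). Plcl1 was at 196, 186 and 189 CPM in saline and 158, 165 and 173 in naloxone libraries of the Drd1-like class, and at 516, 501 and 466 against 504, 573 and 583 in the Drd2-like class, where the groups overlapped. The difference was lost with called doublets kept, at resolution 0.5, with nuclei gated singly and with the Ebf1-led and Plcz1-led clusters added, with adjusted p-values between 8.6e-09 and 0.915 over the alternatives.

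For 2 members every naloxone library lay above every saline library in one class and below in another, and the difference between these classes was not tested. As log2 ratios of group means, Gabra2 was at 0.48 in cholinergic-like nuclei and at -0.20 in Drd2-like, -0.24 in precursor and -1.45 in committed precursor-like nuclei, the last from few UMIs. Gabrg1 was at 0.52 in Drd1-like and -0.34 in precursor nuclei.

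In clusters that entered no comparison, 68 pairs of a member and a cluster had at least 30 UMIs (of 72), and every naloxone library lay above every saline library in 9 of them and below in 3, with no test. Over all genes with at least 30 UMIs, 10.9% to 16.2% did not overlap in these 9 clusters. The 3 lower pairs were Gabra4 in the Ano2-led, Klhl1-led and Slc17a8-led clusters. The ratios of group means for Gabrg1 were 1.499 (Ebf1-led), 1.15 (Plcz1-led) and 1.22 (Slc17a8-led). For Gabra5 they were 1.255 in the Klhl1-led, 1.254 in the Plcz1-led and 1.248 in the Slc17a8-led cluster. The ratios for Gabrb1 were 1.08 (Ebf1-led) and 1.09 (Plcz1-led), and that for Gabrg3 was 1.17 (Bnc2-led).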

How the results depend on the processing

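No paired analysis was possible because the saline libraries are numbered 1 to 3 and the naloxone libraries 4 to 6, so no number is shared. Of the 8 class comparisons, the cholinergic-like, somatostatin-like, Pvalb-like, astrocyte-like and precursor counts of called members stayed within 1.5 times the reported count in every alternative that gave a value. The Drd1-like against Drd2-like count went from 0 to 1 with 1000 genes per nucleus, and the Chst9-like count from 2 to 1 with nuclei gated singly. The eccentric-like count went from 0 to 1 with 1000 genes, 3 with doublets kept and 2 gated singly, and resolution 0.5 gave no eccentric-like class. The count of naloxone calls went from 1 to 2 with DESeq2, 4 without the filter and 0 with 1000 genes, and ran from 0 to 2 over the leave-one-out fits; without saline replicate 3 it was 2 (Gabrg3 and Gabrb1 in committed precursor-like nuclei), and without naloxone replicate 5 also 2 (Gabrg1 in Drd1-like and over all nuclei). The class-by-treatment count went from 0 to 1 without the filter, with doublets kept and with the Ebf1-led and Plcz1-led clusters added (chosen after seeing the data), and ran from 0 to 1 over the leave-one-out fits. Gabrg1 reversed to 0.32 (Chst9-like against Drd1-like) and 0.0101 (eccentric-like) with 1000 genes; the cause was not tested. The count of all genes called by naloxone moved more widely: 47 in Drd1-like nuclei, 7 to 298 over the alternatives and 1 to 116 when a library was left out, and 7 over all nuclei (0 to 421 and 0 to 259). In Drd2-like nuclei it was 52 (24 to 407 and 12 to 79). The class-by-treatment count over all genes was 111 (9 to 226 and 53 to 128). All 8 members were highest in the reported class in the main values, 6 with 1000 genes, at resolution 0.5 and gated singly, 7 with doublets kept, and 7 to 8 over the leave-one-out values. Those that moved were Gabra4 and Gabrd with 1000 genes, Gabra5 and Gabrg3 at resolution 0.5, and Gabra5 and Gabrb2 gated singly. Gabra5 also moved with doublets kept, and Gabrb2 without naloxone replicate 4. Gabrg3 in eccentric-like nuclei moved to 5576 CPM with doublets kept and 4430 gated singly, and Gabra5 in Chst9-like nuclei to 34.4 at resolution 0.5. Levels under 10 CPM rest on few UMIs in small classes.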
